A study of Mus musculus with 14 samples.

Results

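The miRNAs inside IL4-stimulated mouse macrophages were compared with those of unstimulated ones in 6 of the 14 small RNA libraries of the series, the cell lysates, with 3 libraries per group. The other 8 libraries are from exosomes, vesicles released by the cells. The 6 were chosen by the titles alone, with no measured value. The stimulated libraries carry IL4 in their titles and are labelled as stimulated macrophages, and the controls carry WT and are labelled as wild-type controls. All 6 give bone marrow as source and excised bone as tissue. The dose and duration of IL4, the strain and the age of the animals, and whether a library came from 1 animal, a pool or a repeat culture are not stated in the labels. The p-values therefore reflect spread among these 6 libraries, and that spread may be technical. Each title holds a date, and 23 January, 14 March and 21 March each have 1 IL4 and 1 control lysate, numbered here as replicates 1 to 3 in that order. Values by library are given in this date order throughout.

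MicroRNAs (miRNAs) are short RNAs cut from hairpin precursors, and each hairpin can yield a 5p and a 3p mature strand. They guide silencing of messenger RNAs mainly through their seed, bases 2 to 8, so miRNAs with a shared seed can bind many of the same targets even when they are transcribed from different chromosomes. IL4 signals through its receptor and STAT6 and drives macrophages towards an alternative state with high mannose receptor and raised fatty acid oxidation, and NF-kB signalling drives the opposing inflammatory state. Many macrophage miRNAs are made from introns of protein-coding genes or from polycistronic transcripts.

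The sequences below are those on which the results turn, because in each set miRNAs with 1 seed differ in locus and, in several sets, in direction under IL4. They are the RefSeq mature sequences of the GRCm38.p6 build, written 5′ to 3′ with the seed in capitals.
miR-146a-5p: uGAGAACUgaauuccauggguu
miR-146b-5p: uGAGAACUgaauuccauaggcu
miR-99a-5p: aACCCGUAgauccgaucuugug
miR-99b-5p: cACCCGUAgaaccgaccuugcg
miR-100-5p: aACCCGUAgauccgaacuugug
let-7c-5p: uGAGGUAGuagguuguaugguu
let-7e-5p: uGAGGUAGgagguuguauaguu
miR-125b-5p: uCCCUGAGacccuaacuuguga
miR-125a-5p: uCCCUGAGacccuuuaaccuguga
miR-99a-3p: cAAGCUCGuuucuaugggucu
miR-99b-3p: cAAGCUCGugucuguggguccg
miR-449a-5p: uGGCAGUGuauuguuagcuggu
miR-34a-5p: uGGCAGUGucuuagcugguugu
miR-362-5p: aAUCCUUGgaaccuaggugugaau
miR-500-5p: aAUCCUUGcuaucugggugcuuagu
miR-501-3p: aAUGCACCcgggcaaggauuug
miR-500-3p: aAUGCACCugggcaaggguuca
miR-181a-5p: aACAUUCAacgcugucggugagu
miR-181b-5p: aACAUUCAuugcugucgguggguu
Counted from the 5′ end, miR-146b-5p differs from miR-146a-5p by G18A and U21C, let-7e-5p from let-7c-5p by U9G and G19A, and miR-99b-5p from miR-99a-5p by A1C, U11A, U16C and U21C. All of these lie outside the seed. miR-100-5p differs from miR-99a-5p by U16A alone. Likewise let-7a-5p, not listed above, differs from let-7c-5p by G19A alone, and let-7e-5p differs from let-7a-5p by U9G alone. Reads of these pairs are therefore easily exchanged.

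Lysate libraries held 3941480 to 6792079 miRNA counts, and 1 read was worth 0.147 to 0.254 CPM (a count scaled by its library's total, so that libraries of unequal depth can be compared). Macrophage and leukocyte markers differed widely in level. miR-142a-3p, a miRNA of blood cells, had 5704, 5227 and 4804 CPM in controls and 5664, 3537 and 4146 with IL4. miR-511-5p, of the same list, had only 35.1, 26.1 and 28.8 CPM in controls. The 8 listed myeloid and leukocyte markers summed to 30377 to 34333 CPM in controls and 18147 to 20568 with IL4. Most of that sum is miR-223-3p (22230 CPM on average in controls and 8334 with IL4), while the median log2 fold change over the 8 was 0.50. The first principal component (35.6% of the variance of log2 CPM) set both 23 January libraries apart from the March ones, and the second (33%) had positive scores in the 3 controls and negative ones in the 3 IL4 libraries. With every library brought to 3941480 counts, 834.9, 813.5 and 809.2 miRNA lines were expected to have a count in controls and 773, 763 and 756.5 with IL4, so the groups did not overlap (819.2 ± 13.8 against 764.2 ± 8.31, SD, n = 3 each; exact permutation test, two-sided, p = 0.1, the smallest that 3 against 3 allow).

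A small set of miRNAs differed with IL4, most of them higher in the main fit. How many were higher depended on the scaling between libraries, as given below. Of 443 lines tested (35.4% of the table), 26 were higher and 6 lower with IL4 (edgeR's quasi-likelihood test, Benjamini-Hochberg adjusted p at or under 0.05), 7.22% of those tested, or 5.87% higher and 1.35% lower. The lines that rose took 1.56% to 2.16% of a control library's counts and 3.65% to 4.08% of an IL4 library's, and those that fell took 2.6% to 2.8% and 0.743% to 1.21%. At all 3 dates the IL4 library lay on the same side of its control for 32 of the 32 called lines (43.8% of all lines tested did so). CPM of the groups did not overlap for 31 of them (24.2% of all tested, 8.8% with IL4 higher and 15.3% with IL4 lower), the exception being miR-181b-5p. The middle 50% ran from -0.27 to 0.31.

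**Figure D1:**
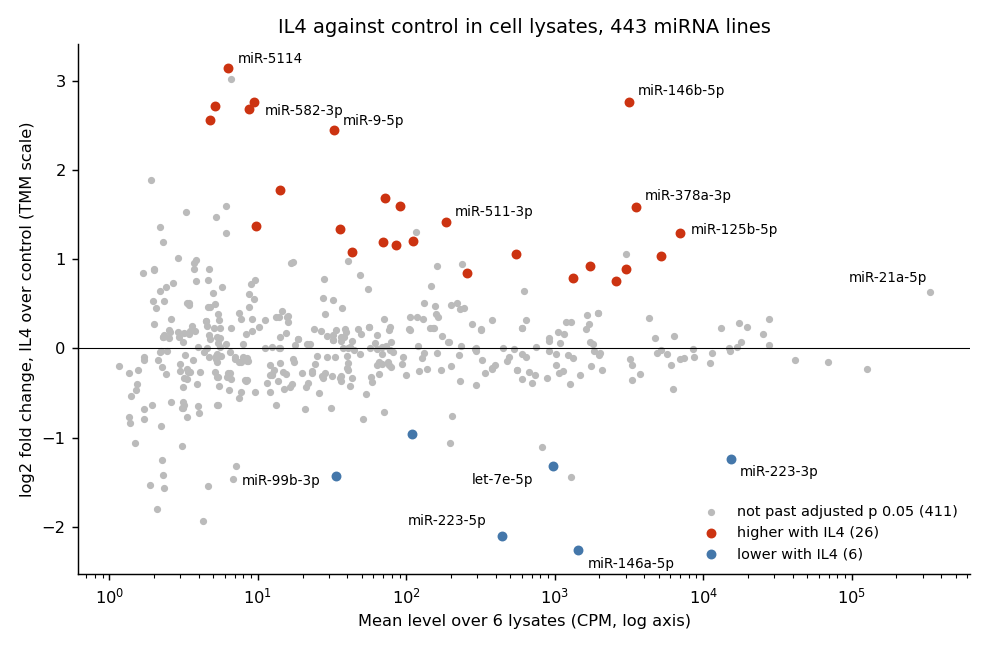
Each point is 1 of the 443 miRNA lines tested in lysates, with its mean level over the 6 libraries (CPM, log axis) and its log2 fold change, IL4 over control. The 26 higher lines (red) span levels from under 10 CPM up to that of miR-125b-5p, and the 6 lower lines (blue) include miR-223-3p, the most abundant line that was called.

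With the title date as a block, 38 lines rose (8.58% of those tested) and 12 fell (2.71%), 11.3% together, and all 32 called without the block were among these 50. The count depended on single libraries: leaving out control replicate 2 gave 2 calls and control replicate 3 gave 13, while leaving out IL4 replicate 2 gave 7 and IL4 replicate 3 gave 10. Scaling to library size in place of TMM factors moved the median over all lines by -0.19 and gave 8 higher and 6 lower (3.16% of those tested), so that 57.1% of calls were higher in place of 81.2%. All fold changes below are relative to the TMM scale.

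**Figure D2:**
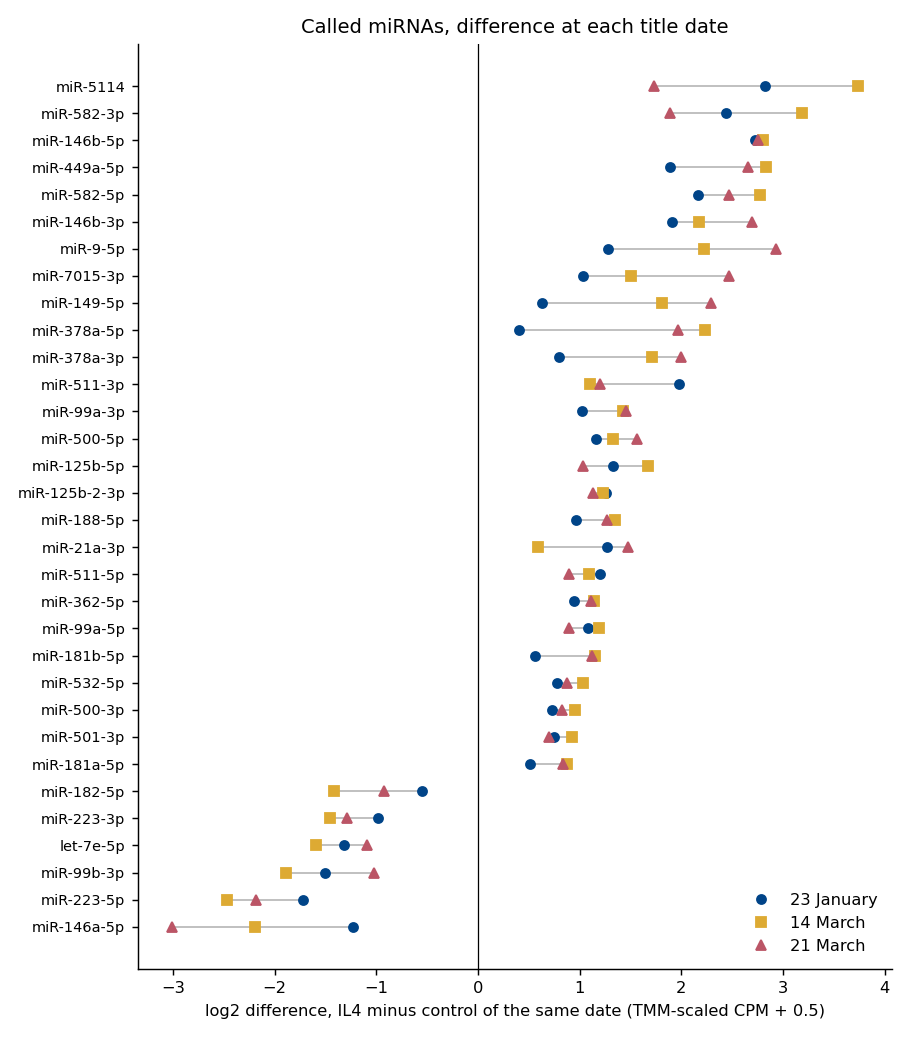
For each of the 32 called miRNAs, the 3 symbols give the log2 difference between the IL4 and the control library of 1 title date (TMM-scaled CPM plus 0.5). All 3 symbols lie on 1 side of 0 for every line shown, with the narrowest range for miR-146b-5p (2.73 to 2.8) and wide ones for miR-378a-5p (0.4 to 2.23) and miR-146a-5p (-3.01 to -1.23).

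The miR-146 paralogs, both known to restrain inflammatory signalling from Toll-like receptors, moved in opposite directions. miR-146b-5p had 709, 876 and 1190 CPM in controls and 4110, 5849 and 6260 with IL4. The lowest IL4 library thus lay above the highest control, and it was 6.76-fold higher (2.76 ± 0.32 SE on the log2 scale, adjusted p = 0.00754). miR-146a-5p had 1765, 1453 and 4072 CPM in controls and 659, 305 and 394 with IL4, again with no overlap, and it fell (-2.26, SE 0.44, adjusted p = 0.0224). The spread among controls came from the 21 March library, which was the highest in both paralogs. Without that library miR-146a-5p had a value of -1.65 (edgeR, adjusted p = 0.0346), and it also kept its call without control replicate 1 or IL4 replicate 1. It was not called without control replicate 2 (-2.54, adjusted p = 0.0802), IL4 replicate 2 (-2.09, adjusted p = 0.106) or IL4 replicate 3 (-2.34, adjusted p = 0.0817). There were 0.401, 0.603 and 0.292 counts of miR-146b-5p for each count of miR-146a-5p in controls and 6.24, 19.2 and 15.9 with IL4, so the more abundant paralog changed from miR-146a in every control to miR-146b in every IL4 library.

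The other strands of these hairpins were rare. miR-146b-3p, from the same hairpin as miR-146b-5p, had 2.26, 1.33 and 1.09 CPM in controls and 8.88, 7.36 and 7.79 with IL4 and rose as well (2.56, SE 0.40, adjusted p = 0.0111). miR-146a-3p, with 1.04, 1.62 and 3.81 CPM against 0, 0.254 and 0.584, was too low to test. An intron of Mfsd13a on chromosome 19 holds Mir146b (46342762 to 46342870, plus strand), and Mir146, the gene of miR-146a, on chromosome 11 (43374397 to 43374461, minus strand) outside any annotated gene searched. Summed over the GAGAACU seed that both 5p strands carry, the level was 2474, 2330 and 5262 CPM in controls and 4769, 6154 and 6654 with IL4. The 23 January IL4 library lay below the 21 March control, so the groups overlapped, and the sum was not called (1.0, SE 0.38, adjusted p = 0.273), though it was in the blocked fit (0.00303).

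The next paralogs belong to homologous clusters that each join a miR-99 type, a let-7 type and a miR-125 type miRNA. In the cluster on chromosome 16, miR-99a-5p, known to target the growth regulator mTOR, had 3606, 2905 and 4775 CPM in controls and 6675, 6344 and 6964 with IL4 (1.03, SE 0.22, adjusted p = 0.0264). miR-125b-5p, a regulator of haematopoietic cell survival that is also made from a chromosome 9 locus, had 4201, 3122 and 6109 CPM against 9271, 9503 and 9791 (1.30, SE 0.25, adjusted p = 0.0224). Both rose, with no overlap between groups and with IL4 libraries closer to each other than the controls were. Their partner strands miR-99a-3p (7.48, 4.71 and 5.81 against 13.8, 12.9 and 13.2 CPM) and miR-125b-2-3p (70.1, 62.3 and 89.1 against 148, 141 and 153 CPM) rose as well, by 1.37 (SE 0.26) and 1.20 (SE 0.24) on the log2 scale. The third member, let-7c-5p, had 26517, 22670 and 29535 CPM against 30828, 29549 and 26146; the groups overlapped and it was not called (0.33, SE 0.14, adjusted p = 0.332). miR-100-5p, of the related chromosome 9 cluster, was rare and not called (11.1, 12.2 and 14.3 against 16.9, 21.8 and 24.3 CPM; 0.95, adjusted p = 0.137, and 0.0241 with the block). Of the 7 tested lines listed for this cluster and its chromosome 9 relative, 4 were higher (5.87% of all lines tested were) and 0 lower, with a median log2 fold change of 1.03. That list holds 1 line that joins let-7a-1-3p and let-7c-2-3p, made on other chromosomes, and lacks the cluster's own let-7c-1-3p (0.82, adjusted p = 0.488, and 0.0134 with the block).

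The chromosome 17 cluster went the other way. let-7e-5p, whose gene Mirlet7e lies in an intron of Spaca6 (17830352 to 17830444, plus strand), had 1210, 1434 and 1693 CPM in controls and 424, 456 and 622 with IL4, and it fell (-1.32, SE 0.29, adjusted p = 0.031). miR-99b-3p fell as well, from 50.1, 45.5 and 57.5 to 15, 11.4 and 22 CPM (-1.43, SE 0.33, adjusted p = 0.0354). The more abundant strand miR-99b-5p had 1410, 2112 and 2351 CPM against 489, 508 and 859, with no overlap, but missed the threshold (-1.44, SE 0.37, adjusted p = 0.0561) and passed it with the block (0.00221). miR-125a-5p, a homolog of miR-125b, had 834, 1138 and 1527 CPM against 312, 422 and 653 (-1.11, SE 0.40, adjusted p = 0.216, and 0.00221 with the block). Controls of 23 January were lowest in miR-99b-5p, let-7e-5p and miR-125a-5p. Of the 6 lines of this cluster all 6 were tested, 0 had a positive value, 2 were called lower (1.35% over all lines) and 4 with the block (2.71%), and the median was -1.37; let-7e-3p (-1.93, adjusted p = 0.377) and miR-125a-3p (-1.32, adjusted p = 0.253) had under 15 CPM in every library.

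Because both counts of a pair come from the same library, their ratio shows the change without any scaling between libraries. miR-99a-5p outnumbered miR-99b-5p 2.56, 1.38 and 2.03 to 1 in controls and 13.7, 12.5 and 8.1 to 1 with IL4. For miR-125b-5p over miR-125a-5p the ratios were 5.04, 2.74 and 4 in controls and 29.7, 22.5 and 15 with IL4, and for let-7c-5p over let-7e-5p they were 21.9, 15.8 and 17.4 against 72.7, 64.8 and 42.1. The groups did not overlap in any of these ratios; the pairs were chosen for the values above, so no test is given. In contrast, miR-99a-5p over miR-100-5p had overlapping ratios of 324, 238 and 333 against 395, 291 and 286. These families are alike in sequence, so how the counting split near-identical reads is uncertain for each ratio. In particular, let-7e-5p averaged 973 CPM over the lysates, against 69546 for its near-copy let-7a-5p. Whether let-7a-5p reads were counted as let-7e-5p was not tested.

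**Figure D3:**
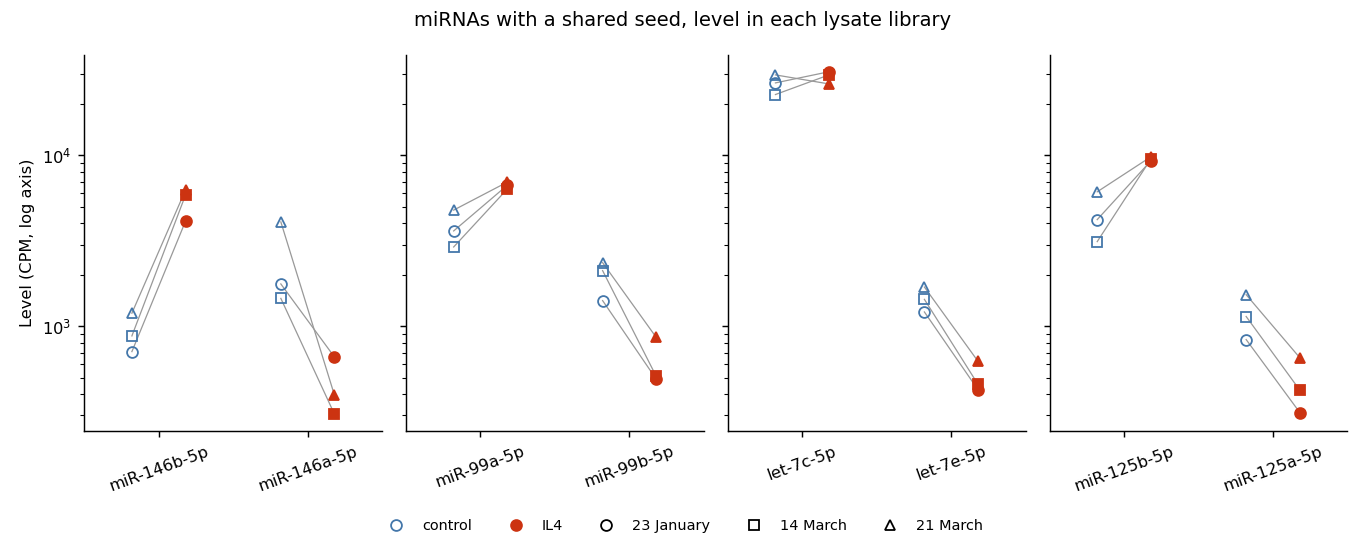
Level (CPM, common log axis) of 4 pairs of miRNAs with a shared seed in each lysate; open blue symbols are controls, filled red ones IL4, the shape gives the title date and grey lines join libraries of 1 date. miR-146b-5p, miR-99a-5p and miR-125b-5p are higher and their partners miR-146a-5p, miR-99b-5p, let-7e-5p and miR-125a-5p lower in every IL4 library than in any control, while let-7c-5p overlaps.

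Counts were then summed over all lines with the same seed, so that a sum does not depend on how reads were split within a family. The called lines miR-378a-3p, miR-378a-5p, miR-532-5p and miR-511-5p are in no sum. Of 303 seeds tested, 14 were higher (4.62%) and 3 lower (0.99%), 17 or 5.61% in all, and 14 of the 17 held a single tested line. Without control replicate 2, 0 seeds were called with edgeR, and 33 had an unadjusted p under 0.05. The 3 called sums with more than 1 tested line were the ACAUUCA seed of the miR-181 5p strands (4020, 3088 and 3181 CPM in controls against 5077, 5829 and 4764, of which miR-181c-5p and miR-181d-5p were not called alone; 0.80, SE 0.17, adjusted p = 0.0371), the AUCCUUG seed of miR-362-5p and miR-500-5p (1.05, SE 0.18, adjusted p = 0.0171) and the AUGCACC seed of miR-501-3p and miR-500-3p (0.77, SE 0.17, adjusted p = 0.0381). The sums of the opposed paralogs were not called. The ACCCGUA seed of miR-99a, miR-99b and miR-100 had 5028, 5029 and 7140 CPM against 7181, 6874 and 7847 (0.53, SE 0.23, adjusted p = 0.347; 0.0143 with the block), and the CCCUGAG seed of the miR-125 type had 0.93 (SE 0.23, adjusted p = 0.0608; 0.00231 with the block). The AAGCUCG seed of the miR-99 3p strands had -0.75 (SE 0.26, adjusted p = 0.218; 0.0276 with the block). The GAGGUAG seed of the let-7 family, the largest of these sums, had 315921, 304100 and 291883 CPM in controls and 286874, 237058 and 209653 with IL4. Its groups did not overlap in CPM, but after TMM scaling it was not called (-0.15, SE 0.13, adjusted p = 0.746), and let-7e-5p was the only called line of 9 tested in it.

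**Figure D4:**
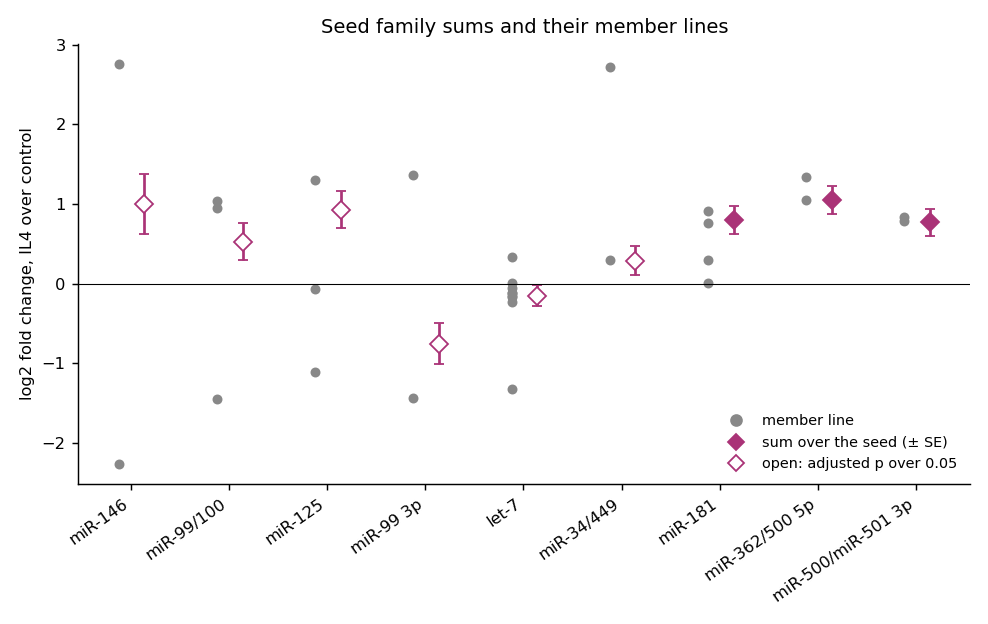
log2 fold change, IL4 over control, of the counts summed over a seed (diamonds, with SE; filled where the adjusted p is at or under 0.05) beside the tested lines of that seed (grey points). The miR-146, miR-99, miR-125 and miR-99 3p sums lie between members of opposite sign and are open, while the miR-181, miR-362 and miR-501 sums are filled.

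A second group that rose together lies on the X chromosome, where Mir500, Mir501, Mir362, Mir188 and Mir532 follow each other between 7237683 and 7248497 on the minus strand within introns of Clcn5, a chloride transporter gene. miR-532-5p, the most abundant, had 2669, 2052 and 2227 CPM in controls and 3999, 4016 and 3217 with IL4 (0.89, SE 0.14, adjusted p = 0.0111). miR-501-3p had 1116, 943 and 1150 CPM against 1639, 1704 and 1464 (0.78, SE 0.16, adjusted p = 0.0256). The IL4 libraries lay above all controls in both. miR-362-5p had 497, 345 and 331 CPM against 837, 726 and 558, and miR-500-3p had 204, 176 and 225 against 297, 327 and 314. The rarer miR-188-5p (46.4 ± 13.4 against 92.1 ± 19.3 CPM, SD, n = 3 each) and miR-500-5p (29.4, 22.4 and 14.9 against 58.1, 54.8 and 35 CPM) rose too, by 1.19 and 1.34 on the log2 scale. Of 9 lines tested here 6 were higher (5.87% over all lines) and 0 lower, all 9 had a positive value, and the median was 0.92. With the date as a block 8 were higher (8.58% over all lines), miR-532-3p (0.94, adjusted p = 0.0509, and 0.0249 with the block) and miR-501-5p (0.92, adjusted p = 0.0605, and 0.023 with the block) being the additional ones. miR-362-3p was called in neither (0.51, SE 0.19, adjusted p = 0.247).

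Several further miRNAs that rose lie inside protein-coding genes. Mir511 is in an intron of Mrc1, the mannose receptor gene long used as a marker of IL4-stimulated macrophages (chromosome 2, 14261003 to 14261081, plus strand), and both strands rose. miR-511-3p had 98.2, 112 and 114 CPM in controls and 340, 231 and 206 with IL4 (1.42, SE 0.23, adjusted p = 0.0117), and miR-511-5p had 35.1, 26.1 and 28.8 against 71.4, 53.8 and 42.6 (1.08, SE 0.21, adjusted p = 0.0224). The 23 January IL4 library was the highest in both. miR-378a, known to be made from an intron of the metabolic coactivator gene Ppargc1b, had its lowest IL4 value on that date. miR-378a-3p had 2276, 1726 and 1987 CPM in controls and 3467, 5414 and 6234 with IL4 (1.58, SE 0.28, adjusted p = 0.0199), and miR-378a-5p had 71.3, 35.5 and 46.4 against 82.7, 162 and 144 (1.60, SE 0.35, adjusted p = 0.0316). The related miR-378b, miR-378c and miR-378d had positive values (0.77, 0.69 and 1.01) and were not called, and miR-378c was with the block (adjusted p = 0.0198). Since these are near-copies, reads of the abundant miR-378a-3p may be among theirs.

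Some rarer miRNAs were among those with the largest fold changes. Mir582, in an intron of the phosphodiesterase gene Pde4d (chromosome 13, 109324744 to 109324824, plus strand), gave 3.48, 2.5 and 1.81 CPM of miR-582-5p in controls and 15.4, 19 and 9.73 with IL4 (2.68, SE 0.36, adjusted p = 0.00754), and miR-582-3p, with 4, 1.77 and 2.36 against 21.4, 19.3 and 7.98 CPM, rose as well (2.76, SE 0.41). miR-449a-5p, from an intron of Cdc20b, had 2.78, 1.18 and 0.544 CPM against 10.4, 10.9 and 4.87 (2.72, SE 0.56, adjusted p = 0.0256). With 1 library left out its value ran from 2.34 to 3.34, and it was called in 6 of 12 alternative fits. It shares the GGCAGUG seed with the far more abundant miR-34a-5p, a p53-responsive miRNA with 1231, 1279 and 1212 CPM against 1369, 1256 and 1360, and the seed's sum was not called (0.29, adjusted p = 0.633). miR-149-5p, in an intron of the proteoglycan gene Gpc1, had 47.6, 35.2 and 33.7 CPM against 64.8, 119 and 131 (1.69, SE 0.35, adjusted p = 0.0256). miR-7015-3p had 8.87, 7.21 and 5.62 CPM against 16.4, 20.6 and 26.3 (1.77, SE 0.32, adjusted p = 0.0201). miR-5114, with 1.39, 0.736 and 2.18 CPM against 11.8, 15.2 and 6.62 (3.14, SE 0.49), lies in an exon of Scd2, a fatty acid desaturase gene, so its reads cannot be told apart from fragments of that messenger RNA. The 6 called lines with a mean under 10 CPM reached at most 21.4 CPM in any library.

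The most abundant miRNA that fell was miR-223, which is made in the myeloid lineage and restrains granulocyte and macrophage activation. miR-223-3p had 23953, 23281 and 19458 CPM in controls and 10654, 8119 and 6230 with IL4 (-1.24, SE 0.17, adjusted p = 0.00754). miR-223-5p had 835, 773 and 582 CPM against 221, 133 and 100 (-2.11, SE 0.26, adjusted p = 0.00754). Both strands were separated between groups at every date, and they were the 2 lines still called without control replicate 2. Of the other 6 listed leukocyte markers, miR-142a-3p (-0.05, adjusted p = 0.96) and miR-142a-5p (-0.24, adjusted p = 0.76) were not called, both miR-511 strands rose, and both miR-342 strands were higher with the block only. In bulk lysates, fewer cells of a type and less RNA per cell cannot be told apart.

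Of the remaining called lines, miR-181a-5p, which tunes signalling thresholds in lymphocytes, had 2188, 1975 and 2118 CPM in controls and 2735, 3484 and 2972 with IL4 (0.76, SE 0.18, adjusted p = 0.0419). miR-181b-5p had 1797, 1086 and 1039 CPM against 2310, 2311 and 1773 (0.92, SE 0.19, adjusted p = 0.027), and the 23 January control lay just above the 21 March IL4 library. The partner strands of miR-181a-5p, made at separate loci, had opposite signs. miR-181a-1-3p had 54.3, 19.9 and 18.1 CPM against 53.3, 48.2 and 50.2 (0.97, adjusted p = 0.249, and 0.0592 with the block). miR-181a-2-3p had 54.8, 33.4 and 32.7 CPM against 32.8, 19 and 14.8 (-0.67, adjusted p = 0.325, and 0.0333 with the block). miR-182-5p, with 155, 159 and 141 CPM against 92.3, 56.6 and 58.2, fell as well (-0.96, SE 0.23, adjusted p = 0.0407), and miR-183-5p of the same cluster was called only with the block (-0.71, adjusted p = 0.147, and 0.0486 with the block). miR-9-5p, induced by inflammatory signals in monocytes, had 11.1, 9.57 and 14.7 CPM against 24.4, 44.4 and 90.7 (2.45, SE 0.54, adjusted p = 0.0316). Without the 21 March IL4 library the value was 1.64. Its partner strand miR-9-3p was not called (1.48, adjusted p = 0.382), and miR-149-3p, miR-182-3p, miR-188-3p, miR-449a-3p and miR-7015-5p, at most 3.5 CPM in any library, were too low to test.

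miR-21a, from a hairpin in an exon of Vmp1 (chromosome 11, 86584067 to 86584158, minus strand), is the most abundant miRNA of these cells. miR-21a-5p had 252642, 315820 and 293633 CPM in controls and 324411, 394399 and 434973 with IL4, with no overlap, but was not called (0.63, SE 0.23, adjusted p = 0.22) except with the block (0.0109). Its rare partner miR-21a-3p had 71.5, 53.2 and 49.5 CPM against 152, 77.1 and 109 and rose (1.16, SE 0.26, adjusted p = 0.0354). Among the other 9 of the 10 most abundant lines, namely miR-30d-5p, miR-27b-3p, miR-26a-5p, miR-222-3p, miR-221-3p, miR-23b-3p, let-7a-5p, let-7c-5p and let-7f-5p, 0 were called, and their log2 fold changes ran from -0.23 (let-7f-5p) to 0.33 (let-7c-5p).

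Some lines were called only with the date as a block. miR-155-5p, induced by inflammatory stimuli, had 518, 157 and 163 CPM in controls and 218, 73.3 and 59.4 with IL4. The 23 January libraries were far above the others and the groups overlapped, so it was not called (-1.06, SE 0.54, adjusted p = 0.463), yet the differences within dates were -1.05, -1.04 and -1.09 and the block called it (0.00221). Without control replicate 1 the unblocked value was -0.42 and without IL4 replicate 1 it was -1.73. miR-342-3p, in an intron of Evl, had 1666, 1975 and 2924 CPM against 1733, 4025 and 5723 (1.06, adjusted p = 0.377, and 0.0249 with the block). miR-342-5p gave 1.30 (adjusted p = 0.147, and 0.00887 with the block). The hypoxia-induced miR-210-3p had 317, 231 and 250 CPM against 182, 112 and 121 (-0.75, SE 0.21, adjusted p = 0.0882, and 0.0134 with the block).

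Both strands of a hairpin were then compared within each library, which needs no scaling. Of 111 hairpins with enough counts in both strands, 0 changed their 5p to 3p ratio at an adjusted p of 0.05 (limma, 0% called), and 6 had an unadjusted p under 0.05. For miR-223 the log2 ratio of 5p to 3p was -4.84, -4.91 and -5.06 in controls and -5.59, -5.93 and -5.96 with IL4, a change of -0.89 (SE 0.20, adjusted p = 0.208). The 5p strand thus fell further in every IL4 library, and miR-223 was the 1 hairpin called among the 60 with a mean of at least 100 counts in each strand (adjusted p = 0.0408). The change was larger for the rare miR-126a (1.23, SE 0.27, adjusted p = 0.208), whose strands miR-126a-5p (0.46) and miR-126a-3p (-0.67) lay on opposite sides of 0 and were not called. For miR-378a (0.04, SE 0.24) and miR-146b (0.19, SE 0.47) the changes of the ratio were smaller than their errors, and for miR-511 the change was -0.35 (SE 0.23).

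**Figure D5:**
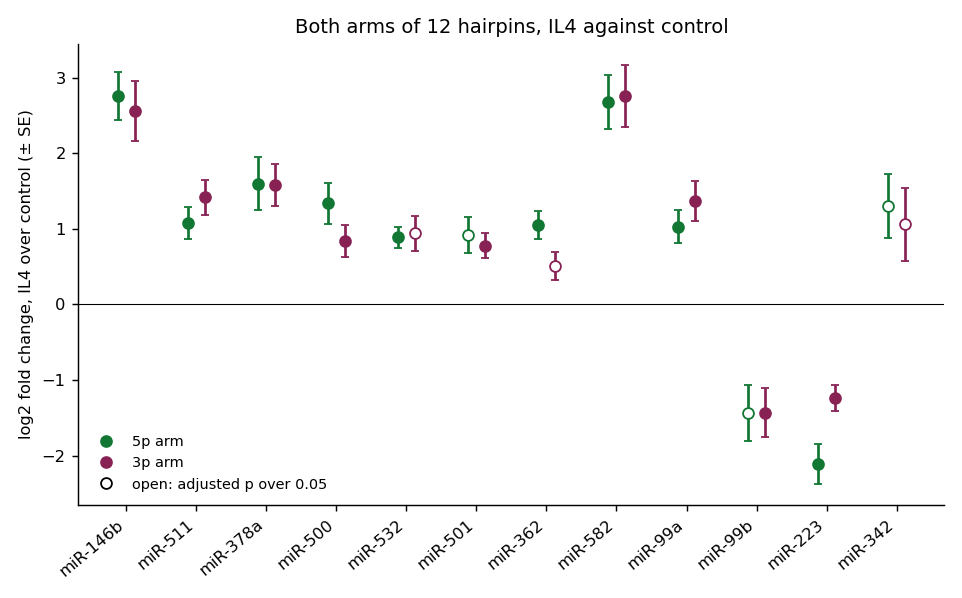
log2 fold change, IL4 over control, with its SE, of the 5p (green) and 3p (purple) strand of 12 hairpins; filled symbols have an adjusted p at or under 0.05. Both strands lie on the same side of 0 in each hairpin shown, and miR-223 has its 5p strand (-2.11) further from 0 than its 3p strand (-1.24). The hairpins were picked with these data known, and each except miR-342 has a called strand. miR-126a, with strands of opposite sign, is not shown.

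Lists of miRNAs put these lines in context; they were drawn up with earlier results of these data known and describe only counts. Of 14 tested miRNAs listed as reported for IL4 or alternative activation, without regard to direction, 6 were higher and 2 lower, beside 5.87% higher and 1.35% lower over all lines tested. Of 13 listed for NF-kB and inflammation, 3 were higher and 1 lower. Of 8 listed for cholesterol handling, 0 were called (edgeR), and of 13 haematopoietic ones 2 were higher and 1 lower. The miR-17 to miR-92a cluster (10 tested), the miR-23, miR-27 and miR-24 clusters (11), the miR-29 family (7) and the miR-30 family (11) had 0 called lines. In all, 20 of 31 lists had no call.

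Markers of other cell types were present at levels that mostly overlapped between groups, and their part in the results was not tested. Erythroid markers summed to 117 to 211 CPM in controls and 120 to 152 with IL4, and lymphocyte markers to 10.3 to 29.4 and 11.6 to 20.8. Endothelial markers summed to 27.4 to 33.9 and 13.4 to 32.6 CPM, and stromal ones to 3606 to 4504 and 2470 to 3641. Most of the stromal sum is miR-140-3p (3948 CPM on average in controls and 2701 with IL4). The neural sum of 702 to 1043 and 437 to 743 CPM is nearly all miR-128-3p, the 1 neural line tested. That line is also listed for cholesterol handling. Liver and gut markers summed to 187 to 427 and 153 to 549 CPM, and muscle markers to 1.56 to 6.04 and 3.89 to 12.7. Epithelial markers, with miR-205-5p at 0 in all lysates, summed to 221 to 267 CPM in controls and 161 to 200 with IL4, lower in every IL4 library. CPM was lower with IL4 without overlap for 15.3% of all lines tested. On the TMM scale the 6 tested epithelial lines had a median log2 fold change of -0.31, and 0 were called. Of 9 marker lists, 8 held no called line, and the myeloid list held 2 higher (the miR-511 strands) and 2 lower (the miR-223 strands) of 8 tested. Over all lines tested, 5.87% were higher and 1.35% lower. At these shares and with 1 to 6 tested lines per list, the lack of a call in the other lists says little about those cell types.

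The IL4 effect in lysates was last set against that in the exosome libraries, which were far shallower. Of 338 lines tested for a difference between the effects, 0 were called (edgeR, 0% called), and 14 had an unadjusted p under 0.05. Of the 15 called lysate lines that could be tested in exosomes, 14 had the same sign there, as did 62.3% of all lines tested in both. In exosomes fitted alone the value of miR-146b-5p was 1.65 (SE 0.27, adjusted p = 0.0296). The difference, lysate minus exosome, was 0.98 (SE 0.48, adjusted p = 0.995). Such differences came from a fit over all 14 libraries, so they need not equal the gap between values fitted apart. The line of opposite sign was miR-182-5p, with 0.86 (SE 0.57) in exosomes and a difference of -2.02 (SE 0.71, adjusted p = 0.857).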

How the data were processed

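Small RNA libraries were made with a NextFlex kit, per the labels' protocols, and cutadapt and the mm10 build are named in the submitters' processing notes; how reads were aligned and counted is not stated in them. The authors deposited counts per miRNA line for 14 libraries, of which the 6 lysates were analysed here. Members and lists were chosen with earlier results of these data known. Of 1250 lines, 10 join several names and 8 equal another line. CPM was computed from the deposited counts.

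Lysates were fitted alone with edgeR 4.0.16 (R 4.3.3; filterByExpr, TMM factors, quasi-likelihood F test, two-sided, Benjamini-Hochberg over all lines, threshold 0.05); the SE is the log2 fold change divided by the root of F. The biological coefficient of variation was 0.35. Seed sums used the 1051 lines with a RefSeq sequence (92.2% to 93.2% of counts). Strand ratios used limma 3.58.1 on log2 counts plus 0.5, with a mean of at least 10 counts per strand. DESeq2 1.42.0 was an alternative, as were other scalings, filters, 1 fit over 14 libraries and leaving out each library. Same-dated IL4 and control lysates deviated together (r = 0.611, 0.256 and 0.282, all over 0.1), so the date was also fitted as a block, as an alternative. The main fit has no block, and all values not marked as with the block come from it or from a named alternative. The 21 March control and the 14 March IL4 library, of different dates, had r = 0.325, so the March dates are not told apart by this check. Scripts were tested on simulated data. By the rule for naming, the text gives all called lines, by library except miR-188-5p, names most of their partner strands and seed mates and the 10 most abundant lines, and gives listed miRNAs by count. Replicates differed by far more than sampling noise (chi-square per degree of freedom of at least 101).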

Additional observations from a re-analysis of the deposited data

How the results depend on the processing

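The 32 called lines became 14 with library size scaling, 50 with the date as a replicate block and 4 in 1 fit over all 14 libraries, and 2 to 34 when 1 library was left out. The 17 called seeds became 8 with library size scaling and 32 with the block, and 0 to 23 with 1 library left out. Strand ratios gave 0 calls, or 1 with at least 100 counts, and leaving out any library gave 0. The difference from exosomes gave 0 calls, or 3 with no filter on low counts. RLE factors, DESeq2, no filter, a 10 CPM minimum and equal lines counted once gave 28 to 46 called lines. All 32 lines kept their call with the block. Its further calls are given above, except for a few lines. In the blocked edgeR fit these were miR-147-5p (1.01, adjusted p = 0.0308), miR-365-3p (0.88, adjusted p = 0.0336), miR-5107-5p (3.45, adjusted p = 0.0311) and miR-21c (0.69, adjusted p = 0.0336). The lines that changed sign under an alternative were ones not called. Library size scaling gave -0.16 for miR-26a-5p, -0.04 for miR-27b-3p, -0.0 for miR-222-3p and -0.17 for miR-221-3p. The 14-library fit gave -0.04 for miR-26a-5p, and the block gave -0.2 for miR-369-3p and -0.37 for miR-143-3p. With 1 library left out, miR-26a-5p ran from -0.23 to 0.37, miR-221-3p from -0.1 to 0.25, miR-142a-3p from -0.16 to 0.07 and miR-122-5p from -2.61 to 0.32. Likewise miR-369-3p ran from -1.53 to 0.72, miR-92a-3p from -0.21 to 0.49, miR-143-3p from -1.82 to 1.21 and miR-150-5p from -0.5 to 0.26. The strand ratio ran from -0.09 to 0.21 for miR-378a and from -0.27 to 0.6 for miR-146b. The cause of these changes was not tested. With 3 libraries a group and a coefficient of variation of 0.35, small changes and lines of a few CPM are the least precise.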

Other observations

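Some miRNAs differed more between libraries than between groups. miR-122-5p, the main miRNA of hepatocytes, had 8.87, 209 and 193 CPM in controls and 2.9, 281 and 33.3 with IL4, low in both 23 January libraries. miR-369-3p, of the imprinted Dlk1-Dio3 cluster, followed a like order, with 4.35, 94.7 and 91.1 CPM against 2.9, 157 and 32.3. miR-143-3p, of smooth muscle and stromal cells, was instead highest on 23 January, with 220, 40.9 and 66.2 CPM against 330, 37 and 12.3. miR-92a-3p, of the proliferation-linked miR-17 to miR-92a cluster, had 19204, 9404 and 10340 CPM against 22202, 10195 and 7861, again highest in the 23 January libraries. None of these 4 lines was called for IL4.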
